A study of Mus musculus with 8 samples.

Results

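The genes described here encode the extracellular matrix of the pancreatic islet and mark the cells that make it: collagens, basement membrane proteins, matrix glycoproteins and proteoglycans, the enzymes that fold, crosslink and cut matrix, and receptors and filaments of fibroblasts and pericytes. They are 41 genes chosen by function, each read from its brightest probe set that names exactly 1 gene symbol, and 39 of them could be measured among the 22180 genes represented in this way on the array. For Fbn1, which encodes fibrillin-1, no probe set with its symbol alone was found and it is not analysed here, and both probe sets of Loxl2, a collagen crosslinking enzyme, also name a second gene and were left out. None of the 39 measured genes passed the threshold for a difference between Fzd9 KO and Fzd9 WT islets. What stood out was the spread between mice of the same genotype, in which most of these genes were high or low together.

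The interstitial matrix is built from fibrillar collagens and proteoglycans that are secreted mainly by fibroblasts and related mesenchymal cells. Basement membranes are thin sheets of collagen IV, laminins and nidogens that underlie endothelium and epithelium, and in the mouse islet the vascular basement membrane is made largely by the endothelial cells and is the matrix that β-cells touch. Pericytes are contractile cells that wrap capillaries within this membrane, and they are recognised by the PDGF receptor β, the NG2 proteoglycan and RGS5.

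Expression was measured on 8 Affymetrix Mouse Gene ST arrays, 1 per mouse, for 4 Fzd9 KO and 4 Fzd9 WT mice. Fzd9 is a Frizzled receptor for Wnt ligands, and in the KO mice it is deleted from every cell of the body, the stromal cells included. Mice of both genotypes were C57Bl/6 young adults of either sex that carried MycER, a tamoxifen-dependent form of Myc, and BclXL, a protector from apoptosis, each under an insulin promoter and so expressed in β-cells, and all received tamoxifen i.p. for 3 d. There was no group without MycER or without tamoxifen, so the effect of Myc itself on these genes cannot be read. The mice were separate animals, and the sex of each was not stated. According to the study's methods, islets were freed with collagenase, filtered and picked by hand, a digestion that acts on the matrix around the islet, and the islets of a mouse were pooled. The sample labels instead name the material insulinoma and tumour tissue. In such bulk RNA, fewer cells of a type and less RNA per cell cannot be told apart.

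Promoter windows of the genes, from 250 bases before to 50 bases after the start of transcription, were taken from RefSeq (GRCm38.p6) and were found for 26 of the 41 genes. The collagen IV pair is shown because both genes are read from a shared promoter region in opposite directions, with starts 21 bases apart, and because both could be measured in every mouse. Col4a1 (chr8:11312777-11313076, minus strand) and Col4a2 (chr8:11312555-11312854, plus strand) are printed 5′ to 3′, and the capitals mark the 78 bases that both windows hold, each as the reverse complement of the other.
Col4a1: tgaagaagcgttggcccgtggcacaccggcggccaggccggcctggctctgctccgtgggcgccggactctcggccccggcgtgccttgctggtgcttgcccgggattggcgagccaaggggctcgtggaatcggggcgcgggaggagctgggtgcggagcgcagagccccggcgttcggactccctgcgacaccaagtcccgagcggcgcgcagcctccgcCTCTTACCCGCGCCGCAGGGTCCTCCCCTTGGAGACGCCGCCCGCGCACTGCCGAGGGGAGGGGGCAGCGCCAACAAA
Col4a2: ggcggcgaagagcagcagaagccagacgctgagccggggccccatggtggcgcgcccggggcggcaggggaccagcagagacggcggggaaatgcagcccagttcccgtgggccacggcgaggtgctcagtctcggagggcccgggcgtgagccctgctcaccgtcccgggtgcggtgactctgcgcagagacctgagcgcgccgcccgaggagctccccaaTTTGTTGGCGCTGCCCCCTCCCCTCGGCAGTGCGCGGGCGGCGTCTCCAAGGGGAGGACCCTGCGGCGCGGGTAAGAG
For comparison, the windows of a fibroblast collagen, Col1a2 (chr6:4505368-4505667, plus strand), and of a pericyte gene, Rgs5 (chr1:169655251-169655550, plus strand), follow with motifs in capitals, namely the CCAAT box (CCAAT, or ATTGG on the other strand) and the GC box (GGGCGG, or CCGCCC on the other strand).
Col1a2: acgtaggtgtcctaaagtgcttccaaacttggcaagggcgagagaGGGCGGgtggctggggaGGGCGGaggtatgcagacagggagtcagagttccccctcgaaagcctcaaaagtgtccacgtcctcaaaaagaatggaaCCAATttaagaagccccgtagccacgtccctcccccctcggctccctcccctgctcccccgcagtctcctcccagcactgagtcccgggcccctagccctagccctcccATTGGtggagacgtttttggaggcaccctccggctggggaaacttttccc
Rgs5: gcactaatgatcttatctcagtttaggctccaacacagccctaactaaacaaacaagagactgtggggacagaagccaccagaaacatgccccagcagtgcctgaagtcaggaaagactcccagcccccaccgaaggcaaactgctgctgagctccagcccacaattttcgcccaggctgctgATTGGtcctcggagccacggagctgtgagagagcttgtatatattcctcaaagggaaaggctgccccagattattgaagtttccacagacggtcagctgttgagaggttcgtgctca
The Col1a2 window held 2 CCAAT boxes and 2 GC boxes that did not overlap one another, and the Rgs5 window held 1 CCAAT box and no GC box. Across the list, with both strands searched, the GC box was found in 17 of the 26 windows (65.4%), against 35.9% of 27025 mouse windows of the same length. The only GC box of the Col4a1 window lies in the bases shared with Col4a2, so that site counts for both genes. The CCAAT box was found in 11 (42.3%), against 37.9% of all windows. TATAAA was present in 2 windows (7.7%, against 14.2% of all), TGANTCA, the AP-1 site, in 1 (3.8%, against 7.9%), and CACGTG, the E-box, in 1 (3.8%, against 7.2%). These are matches of letters and were not tested as binding sites.

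Levels are log2 expression, on which a difference of 1 is a doubling. Array medians lay between 2.90 and 3.17, and the number of arrays limits the precision. KO mouse 1 and WT mouse 3 had the arrays least like the rest, correlating with the remaining arrays at 0.893 and 0.897 on average, where each of the others reached 0.917 to 0.926. Fzd9 itself was read at 2.68, 2.76, 2.65 and 2.01 in KO mice 1 to 4 and at 3.44, 1.97, 2.78 and 3.31 in WT mice 1 to 4, overlapping ranges, the log2 fold change being −0.35 (standard error 0.34). Whether this probe set lies within the deleted sequence was not stated, so the reading does not check the genotype labels. As a gauge of background, 1405 probe sets for olfactory and vomeronasal receptors were used, whose 95th percentile was 3.52. Of the 39 genes, 28 lay above that level on average over the 8 arrays, and 11 did not: Col5a2, Col6a1, Col6a3, Fbln1, Lum, Lox, Loxl1, Mmp2, Timp1, Pdgfra and Thy1.

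The question was whether islets without Fzd9 differed in matrix and stromal genes early after Myc activation. A probe set was called where limma gave a p under 0.05 before adjustment together with a change of 1.2-fold or more, the limits that the study set. Of the 39 genes 0 were called in either direction, and 0 reached an unadjusted p under 0.05 with limma. The same held for the methods' t-test, which the study names in its general statistics section and not for the arrays. Over all 41345 probe sets 3.49% were called, 1.59% lower and 1.9% higher in KO islets. KO and WT values overlapped for each of the 39 genes, whereas they did not overlap for 2.36% of all probe sets. Every Benjamini-Hochberg adjusted p of the list from limma was 1, with 0.095 as the lowest among all probe sets. By a two-sided exact permutation test over the mice, whose smallest possible p in this design is 0.0286, the lowest value of the list was p = 0.114, for Lamc1.

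In KO islets 27 of the 39 means were lower and 12 were higher than in WT islets, which is 69.2% lower, against 50.0% of the 22180 genes and 47.6% of all probe sets. The median log2 fold change of the list was −0.18, beside a median of 0.02 over all probe sets, and single genes ranged from −0.79 for Dcn to 0.37 for Sparc. Leaving out WT mouse 2 turned the median to 0.06, and leaving out KO mouse 4 brought it to 0.01. The difference between genotypes was smaller than the pooled SD of the mice for 35 of the 39 genes, as it was for 82.3% of all 22180 genes. For 38 of the 39 genes, all but Fbln1, the range within each genotype exceeded the difference between the means. That count was not made over all genes, so it does not set the list apart.

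**Figure D1:**
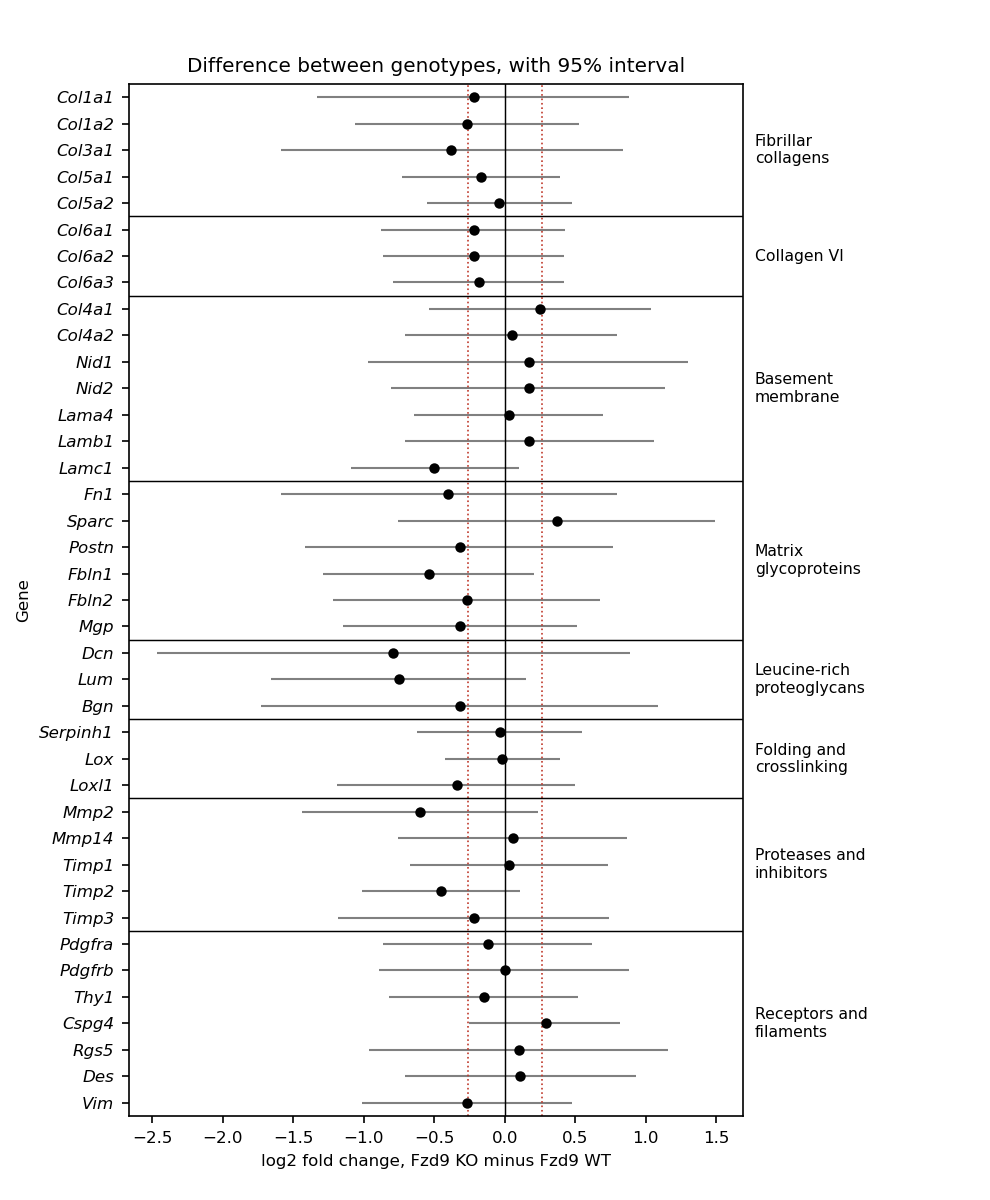
Log2 fold change (Fzd9 KO minus Fzd9 WT, x axis) of each of the 39 measured genes (y axis, grouped by role), with its 95% interval from limma as a line and a fold change of 1.2 in either direction as dotted lines. Every interval spans 0, and the points lie between −0.79 and 0.37.

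The data do not show that these genes were equal in both genotypes. The 95% interval of the difference held a 1.2-fold change in both directions for 33 genes, and it stayed within 2-fold for 16, within 1.5-fold for 2 and within 1.2-fold for 0. At the median of the list the interval reached 0.81 on the log2 scale to either side of the estimate, against 0.60 over all probe sets.

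The median gene of the list spread more between mice of a genotype than the median gene of the array. The median SD of the list was 0.47 in KO and 0.68 in WT islets, against 0.30 and 0.32 over the 22180 genes. Among genes above the background level of 3.52 it was 0.59 in KO and 0.70 in WT islets for the 28 of the list. For all 10210 such genes it was 0.30 and 0.35. The SD was larger in WT islets for 28 of the 39 genes, against 54.1% of all genes. The mean level of the 39 genes was 4.42, 4.52, 4.56 and 3.85 in KO mice 1 to 4 and 4.73, 5.18, 4.27 and 3.81 in WT mice 1 to 4. KO mouse 4 and WT mouse 4 were thus the low mice of their genotypes, WT mouse 2 was the high one, and the genotypes overlapped (4.34 ± 0.33 in KO and 4.50 ± 0.59 in WT, SD, n = 4 each).

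Gene by gene the same mice recurred. KO mouse 4 was the lowest KO mouse for 30 of the 39 genes and WT mouse 4 the lowest WT mouse for 31, while these mice were the lowest of their genotype for 23.5% and 20.7% of all 22180 genes. Together they held the lowest of the 8 values for 28 genes, 13 in KO mouse 4 and 15 in WT mouse 4. WT mouse 2 was the highest WT mouse for 28 genes and the highest of all 8 for 22, and among all genes it was the highest WT mouse for 22.5%. KO mouse 3 was the highest KO mouse for 18 genes and the highest of all 8 for 8, most of them basement membrane and pericyte genes. The mouse number is a label, and whether mice of the same number were handled together was not stated. KO mouse 1 and WT mouse 3, whose arrays were least like the rest, held 3 and 4 of the lowest of the 8 values. Within their genotypes they were the lowest for 3 and 6 of the 39 genes. Among all 22180 genes these shares were 31.6% and 30.2%, and among those above background 47.3% and 47.1%.

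**Figure D2:**
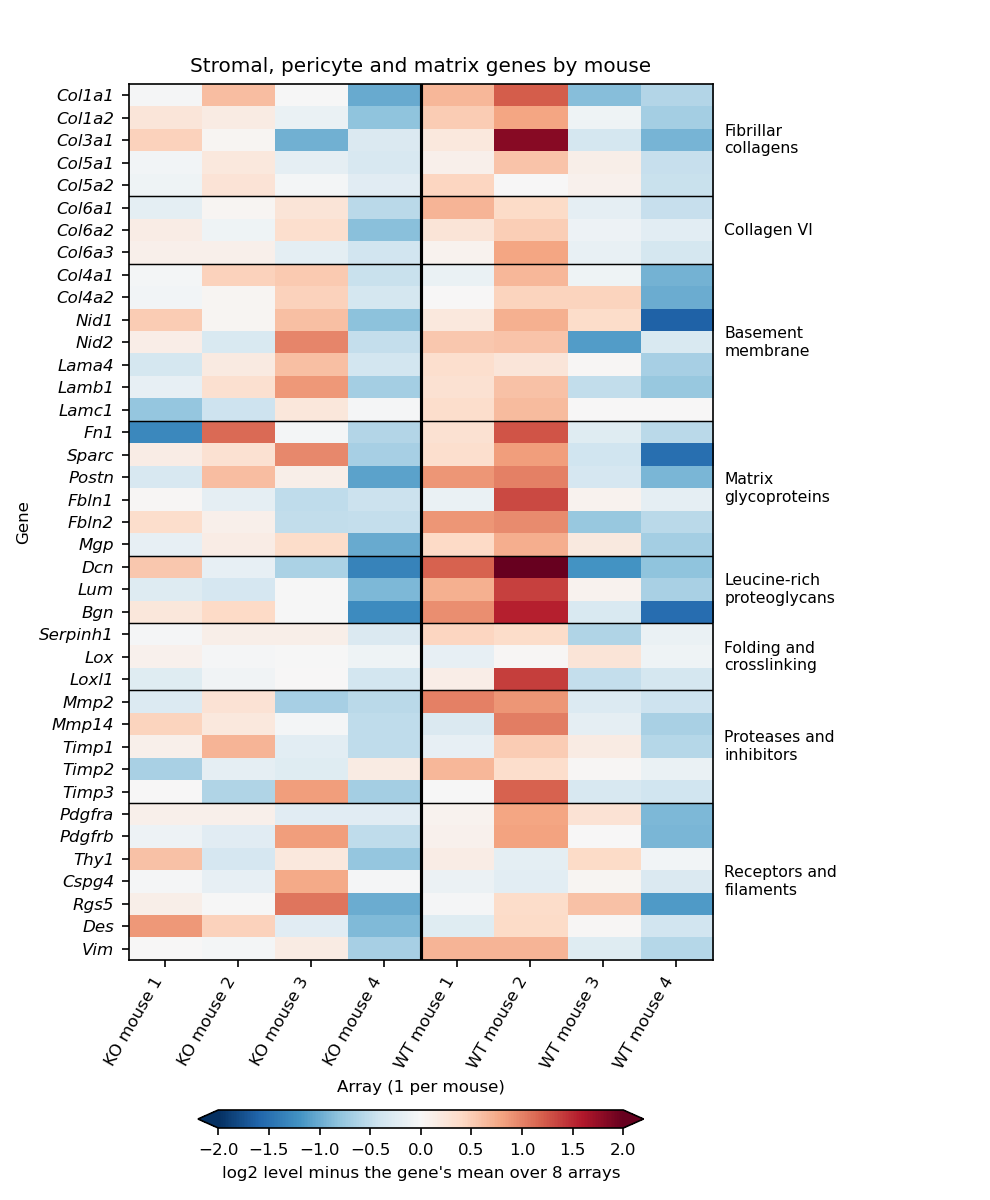
Level of each of the 39 genes (rows, grouped by role) in each mouse (columns, Fzd9 KO left of the line), as log2 level minus the gene's mean over the 8 arrays, with colours cut at ±2. The column of WT mouse 2 is red for most genes, and the columns of KO mouse 4 and WT mouse 4 are blue for most.

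The 5 fibrillar collagen genes, which encode the chains of the rope-like collagen fibrils, all had lower means in KO islets, with log2 fold changes of −0.38 to −0.04. Col1a1, the α1 chain of type I collagen, stood at 4.99, 5.63, 5.01 and 4.01 in KO mice 1 to 4 and at 5.69, 6.23, 4.17 and 4.43 in WT mice 1 to 4. WT mice 1 and 2 were higher than each KO mouse, while WT mice 3 and 4 lay within the KO range, and the log2 fold change was −0.22 (standard error 0.50). Col1a2, the α2 chain whose promoter is printed above, averaged 4.03 ± 0.48 in KO and 4.29 ± 0.65 in WT islets (SD, n = 4 each), a difference of −0.27, with −0.38 (standard error 0.37) on a second probe set. For Col3a1, the chain of type III collagen, WT mouse 2 was at 5.76, against 2.98 to 4.41 in KO mice and 3.02 to 4.16 in the other WT mice. Without WT mouse 2 the Col1a1 difference was 0.14, and without KO mouse 4 it was 0.08. Type V collagen, which regulates fibril width, was read from Col5a1 and Col5a2. Col5a2 was at 2.54, 2.89, 2.58 and 2.39 in KO mice 1 to 4 and at 3.05, 2.62, 2.70 and 2.18 in WT mice 1 to 4, in the background range, and Col5a1 gave −0.17 (standard error 0.25), and −0.37 (standard error 0.24) on a second probe set.

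Collagen VI forms beaded microfibrils close to cells, and the 3 chains on the list gave log2 fold changes of −0.22 to −0.18. Col6a2 was at 3.95, 3.72, 4.13 and 2.97 in KO mice 1 to 4 and at 4.05, 4.29, 3.70 and 3.59 in WT mice 1 to 4. KO mouse 4 was below the 7 others for this gene, and the other KO mice lay among the WT mice. Col6a1 and Col6a3 were on average in the background range, with KO mouse 4 as the lowest of all in both, and a second Col6a1 probe set gave −0.02 (standard error 0.30).

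Among the 7 basement membrane genes, 6 had higher means in KO islets, each by less than its standard error, and the median log2 fold change was 0.17, with no gene called. Col4a1, the α1 chain of the collagen IV network, was at 4.45, 4.95, 5.01 and 4.05 in KO mice 1 to 4 and at 4.35, 5.16, 4.40 and 3.55 in WT mice 1 to 4. Col4a2, its partner across the shared promoter region, was at 4.72, 4.81, 5.23 and 4.41 in KO mice 1 to 4 and at 4.78, 5.21, 5.22 and 3.77 in WT mice 1 to 4. For both chains KO mouse 3 was the highest KO mouse, mouse 4 was the lowest of each genotype, and KO and WT values overlapped. The log2 fold changes were 0.25 (standard error 0.35) for Col4a1 and 0.05 (standard error 0.34) for Col4a2.

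Nid1, which encodes nidogen-1, a linker of the laminin and collagen IV networks, was at 7.83, 7.37, 7.93 and 6.51 in KO mice 1 to 4 and at 7.53, 8.03, 7.69 and 5.71 in WT mice 1 to 4. Both low values belonged to mouse 4 of its genotype, and the highest and lowest WT mice were 5.0-fold apart. Its log2 fold change of 0.17 (standard error 0.51) had the opposite sign on the second Nid1 probe set, −0.09 (standard error 0.44). Nid2, nidogen-2, and Lamb1, the laminin β1 chain, each gave 0.17 as well, and Lama4, the laminin α4 chain of blood vessels, gave 0.03 (standard error 0.30). KO mouse 3 was the highest KO mouse for all 7 genes of this group. Lamc1, the laminin γ1 chain found in most laminins, was the exception in direction, at 5.78, 6.14, 6.78 and 6.53 in KO mice 1 to 4 and at 6.90, 7.19, 6.57 and 6.56 in WT mice 1 to 4. KO mice 1, 2 and 4 were below all WT mice, KO mouse 3 was within their range, and the log2 fold change was −0.50 (standard error 0.26, limma adjusted p = 1). It was named after its values were seen, and without KO mouse 3 it passed the threshold.

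Among the matrix glycoproteins the median log2 fold change was −0.32, with 5 of the 6 measured genes lower in KO islets. Sparc, a collagen-binding protein of remodelling tissue and of vessels, was the exception and had the largest positive value of the list. It was at 5.65, 5.81, 6.47 and 4.84 in KO mice 1 to 4 and at 5.84, 6.35, 5.11 and 4.00 in WT mice 1 to 4. Mouse 4 was again the lowest of each genotype, KO mouse 3 the highest of all, and the log2 fold change was 0.37 (standard error 0.50). Without WT mouse 4 it was −0.08. Mgp, matrix Gla protein, an inhibitor of calcification, was at 5.89, 6.21, 6.43 and 5.05 in KO mice 1 to 4 and at 6.46, 6.79, 6.25 and 5.38 in WT mice 1 to 4. WT mice 1 and 2 were above the KO mice for this gene, mouse 4 was the lowest of each genotype, and the log2 fold change was −0.32 (standard error 0.37).

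Fn1, fibronectin, a scaffold for cell adhesion, spread the most of the list among KO mice, from 3.48 in KO mouse 1 to 5.90 in KO mouse 2, and from 4.22 to 6.03 in WT mice. Postn, periostin, a product of activated fibroblasts, ranged from 3.55 to 5.23 in KO mice and from 3.70 to 5.62 in WT mice. The fibulins, which join elastic fibres and basement membranes, differed in how the WT mice spread. Fbln1 was at 2.62 to 3.15 in KO mice and at 4.45 in WT mouse 2, with the other WT mice at 2.95 to 3.19, and its log2 fold change was −0.54 (standard error 0.34). Fbln2 stood at 3.89 to 4.73 in KO mice and was high in both WT mouse 1 (5.27) and WT mouse 2 (5.33), with WT mice 3 and 4 at 3.63 and 3.84.

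The small leucine-rich proteoglycans, which bind collagen fibrils and set their spacing, had the lowest median log2 fold change of the role groups, −0.75, with all 3 means lower in KO islets and none called. Dcn, decorin, was at 6.10, 5.40, 4.93 and 4.23 in KO mice 1 to 4 and at 6.74, 7.97, 4.36 and 4.76 in WT mice 1 to 4. WT mice 1 and 2 were above each KO mouse and WT mice 3 and 4 were below 3 of them, so the extremes lay 12.2-fold apart in WT and 3.68-fold apart in KO islets. The difference of −0.79 (standard error 0.75) was the most negative of the list and also among the least precise, with a 95% interval of −2.47 to 0.89. It was −0.12 without WT mouse 2 and −1.32 without WT mouse 3.

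Lum, lumican, was in the background range in most mice, at 2.61, 2.52, 2.86 and 1.96 in KO mice 1 to 4 and at 3.57, 4.23, 2.94 and 2.22 in WT mice 1 to 4. The 3 WT mice other than mouse 4 were higher than all KO mice, and WT mouse 4 was below 3 of them. Its log2 fold change was −0.75 (standard error 0.40, limma adjusted p = 1), and without WT mouse 4 it was −1.10 and passed the threshold. Bgn, biglycan, was at 7.04, 7.21, 6.80 and 5.56 in KO mice 1 to 4 and at 7.74, 8.36, 6.50 and 5.28 in WT mice 1 to 4. WT mice 1 and 2 were the highest and mouse 4 was the lowest of each genotype, an 8.45-fold span in WT islets around a log2 fold change of −0.32 (standard error 0.63). Leaving out WT mouse 2 gave 0.14 and leaving out KO mouse 4 gave 0.04, and a second Bgn probe set gave −0.12 (standard error 0.27).

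**Figure D3:**
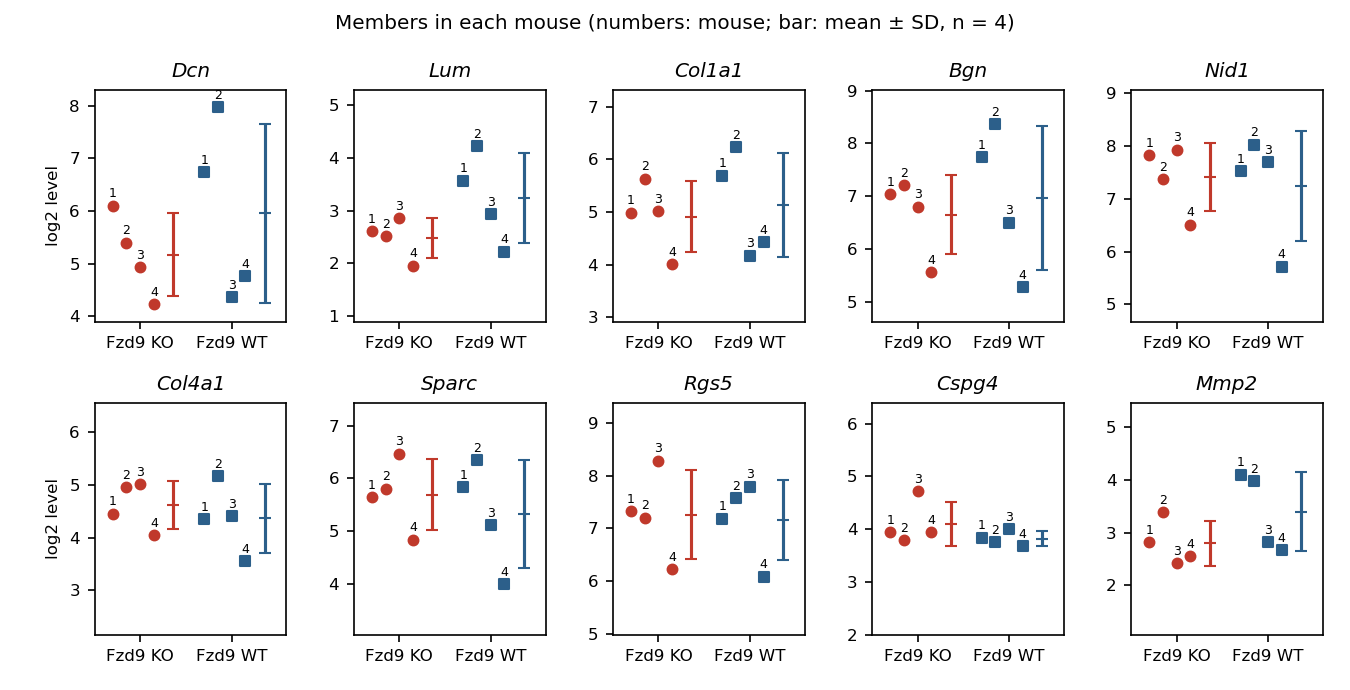
Log2 level (y axis) of 10 genes in each mouse, Fzd9 KO as red circles and Fzd9 WT as blue squares numbered by mouse, with the mean ± SD (n = 4) beside each group. The genotypes overlap in every panel, and for Dcn, Lum and Bgn the points of WT mice 1 and 2 lie above all KO points.

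Serpinh1, Lox and Loxl1 act on collagen after translation, and their differences were no larger than their standard errors. Serpinh1, the collagen chaperone HSP47, was at 3.58, 3.72, 3.71 and 3.31 in KO mice 1 to 4 and at 4.03, 3.96, 2.99 and 3.47 in WT mice 1 to 4. The KO values lay between the WT extremes, and the log2 fold change was −0.03 (standard error 0.26). Lox, lysyl oxidase, which crosslinks collagen and elastin, was in the background range on every array, at 1.94, 1.82, 1.84 and 1.77 in KO mice 1 to 4 and at 1.68, 1.88, 2.11 and 1.76 in WT mice 1 to 4. At such a level a change in Lox could not be read. Its relative Loxl1 was at 4.76 in WT mouse 2, against 3.00 to 3.38 in KO mice and 2.89 to 3.50 in the other WT mice.

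Matrix proteases and their inhibitors had a median log2 fold change of −0.22 with 3 of 5 means lower in KO islets. Mmp2, a gelatinase that fibroblasts secrete, was at 2.82, 3.38, 2.42 and 2.55 in KO mice 1 to 4 and at 4.10, 3.97, 2.82 and 2.67 in WT mice 1 to 4. WT mice 1 and 2 were above the KO mice, WT mice 3 and 4 were among them, and the log2 fold change was −0.60 (standard error 0.37). Mmp14, the membrane protease that activates the MMP2 proenzyme, gave 0.06 (standard error 0.36). Timp3, the inhibitor that is held in the matrix, was at 5.59, 4.97, 6.41 and 4.89 in KO mice 1 to 4 and at 5.57, 6.75, 5.26 and 5.17 in WT mice 1 to 4. KO mouse 3 and WT mouse 2 were the high mice for Timp3, and the genotypes overlapped, the log2 fold change being −0.22 (standard error 0.43). Timp2, which inhibits MMP2 and also helps to activate it, had the lowest value in KO mouse 1 and not in mouse 4, and ranged from 3.88 to 4.70 in KO mice and from 4.40 to 5.19 in WT mice (log2 fold change −0.45, standard error 0.25). Timp1, an inducible inhibitor, was on average in the background range in both genotypes.

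Receptors and filaments of fibroblasts and pericytes had a median log2 fold change of 0.00, with 4 of 7 means lower in KO islets. Pdgfra, the PDGF receptor α of fibroblasts, was at 2.67, 2.68, 2.35 and 2.35 in KO mice 1 to 4 and at 2.64, 3.37, 2.86 and 1.67 in WT mice 1 to 4, all within the background range. The KO values lay between the WT extremes, WT mouse 2 was the highest and WT mouse 4 the lowest. Thy1, a surface protein of fibroblasts and also of neurons and T cells, was likewise on average in the background range, so both of these surface markers of fibroblasts were at the limit of what the array read.

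Pericyte genes were read more clearly. Pdgfrb, the PDGF receptor β, ranged from 5.14 to 6.49 in KO mice and from 4.73 to 6.46 in WT mice, the log2 fold change being 0.00 (standard error 0.40). Rgs5, a regulator of G protein signalling, was at 7.33, 7.20, 8.28 and 6.22 in KO mice 1 to 4 and at 7.18, 7.57, 7.79 and 6.08 in WT mice 1 to 4. KO mouse 3 was the highest of all and mouse 4 the lowest of each genotype, and the log2 fold change was 0.10 (standard error 0.47), against −0.09 (standard error 0.30) on a second probe set. Cspg4, the NG2 proteoglycan, was at 3.94, 3.79, 4.72 and 3.94 in KO mice 1 to 4 and at 3.84, 3.75, 4.00 and 3.67 in WT mice 1 to 4. Only KO mouse 3 left the narrow range of the others, and the log2 fold change of 0.29 (standard error 0.24) was 0.08 without that mouse. Des and Vim, intermediate filaments of contractile and mesenchymal cells, gave 0.11 (standard error 0.37) and −0.27 (standard error 0.33), with −0.03 (standard error 0.19) on a second Vim probe set. Des was highest in KO mouse 1, at 4.86, and lowest in KO mouse 4, at 3.11, so its extremes were both KO mice.

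Lists of cell type markers also varied from mouse to mouse. The mean level of 6 genes that define fibroblasts here (Pdgfra, Col1a1, Col1a2, Col3a1, Dcn and Lum) was 4.20, 4.09, 3.69 and 3.26 in KO mice 1 to 4 and 4.58, 5.42, 3.67 and 3.26 in WT mice 1 to 4. That of 5 pericyte genes (Pdgfrb, Cspg4, Rgs5, Kcnj8 and Abcc9) was 4.85, 4.69, 5.48 and 4.32 in KO mice 1 to 4 and 4.70, 5.16, 4.93 and 4.12 in WT mice 1 to 4. All 6 fibroblast genes, and Pdgfrb, Cspg4 and Rgs5 of the pericyte genes, belong to the 39 genes. Their means are therefore not a readout separate from that list. These 6 fibroblast genes peaked in WT mouse 2 and these 5 pericyte genes in KO mouse 3, while mouse 4 was the lowest of each genotype for both. Other markers did not repeat this split. The 14 other pericyte and smooth muscle markers peaked in WT mouse 2 (4.85, against 4.76 in KO mouse 3). The 15 other fibroblast markers also peaked in WT mouse 2 (3.64), with KO mouse 3 as the highest KO mouse (3.47). Their KO minus WT difference was −0.03, against −0.42 for the 6 fibroblast genes. Of the 6 fibroblast genes 4 were above background, as were 4 of the 5 pericyte genes, and no marker was listed at 0.

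Endothelial markers, 19 genes of vessel lining, had a mean of 5.12, 4.77, 5.64 and 4.48 in KO mice 1 to 4 and of 5.0, 5.60, 4.39 and 4.13 in WT mice 1 to 4, with 14 of the 19 means higher in KO islets. The single called gene among them, Vwf, von Willebrand factor, went the other way, at 2.75 ± 0.24 in KO and 3.49 ± 0.64 in WT islets (SD, n = 4 each), with a difference of −0.74 (standard error 0.31), on average in the background range. The endothelial markers were highest in KO mouse 3 and WT mouse 2 and lowest in mouse 4 of each genotype, the same mice as for the basement membrane genes, whose mean was 5.31, 5.46, 6.02 and 4.96 in KO mice 1 to 4 and 5.64, 5.96, 5.29 and 4.66 in WT mice 1 to 4. Leukocyte markers, 27 genes, spread less, from 3.64 to 3.98 in KO mice and from 3.69 to 4.09 in WT mice. Mouse 4 was the lowest of each genotype for them too, and WT mouse 2 was the highest of all. Acinar markers, 23 genes of the exocrine tissue, followed another order, at 6.70, 4.62, 4.73 and 3.67 in KO mice 1 to 4 and 4.64, 3.89, 5.48 and 4.20 in WT mice 1 to 4. The 14 β-cell markers stood at 6.82 to 7.10 in KO mice and 6.72 to 7.54 in WT mice, with WT mouse 2 as the lowest of all. The part of cell makeup in the spread of the matrix genes was not tested.

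**Figure D4:**
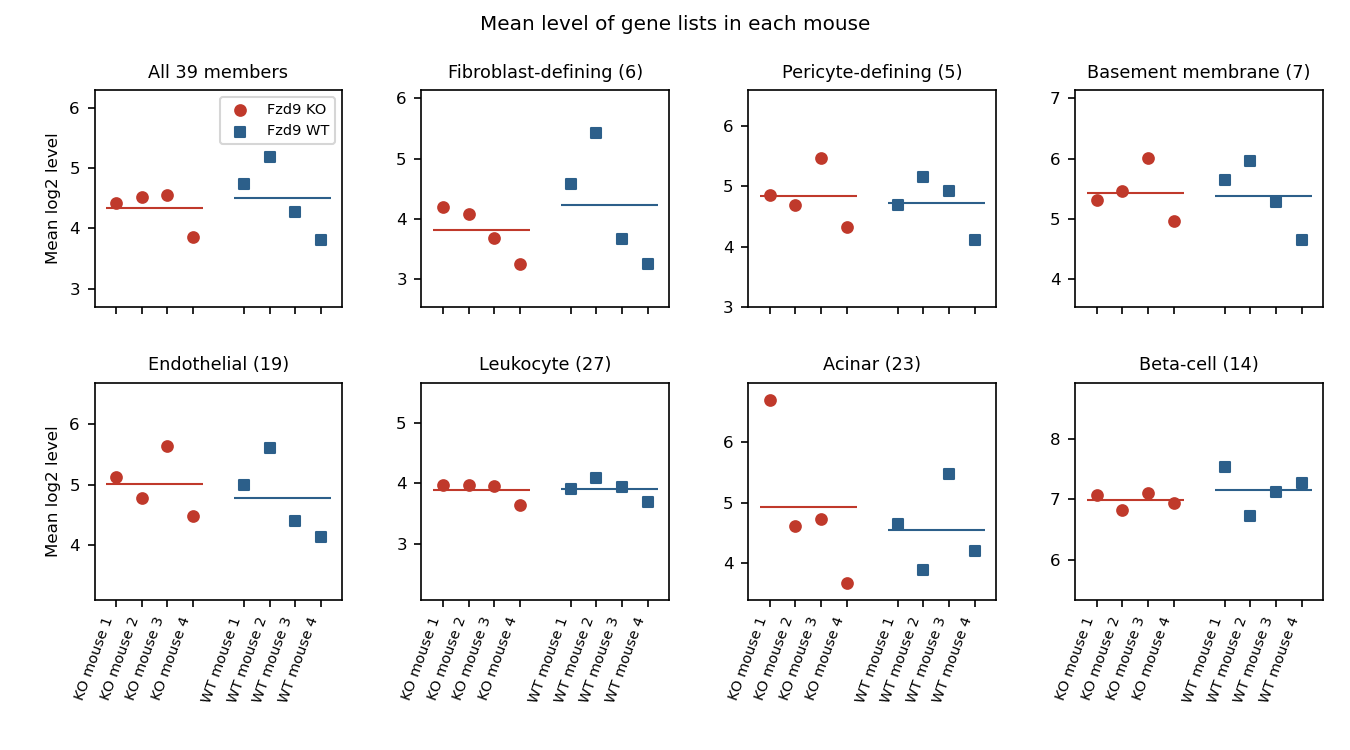
Mean log2 level (y axis) of 8 gene lists in each mouse (x axis), Fzd9 KO as red circles and Fzd9 WT as blue squares, with a line at the mean of each genotype and the number of genes in brackets. KO mouse 4 and WT mouse 4 are the lowest of their genotypes in the stromal, basement membrane, endothelial and leukocyte panels. The acinar panel has its highest points in KO mouse 1 and WT mouse 3 and its lowest in KO mouse 4.

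A wider list of 170 other measured matrix genes, covering further collagens, basement membrane proteins, glycoproteins, processing enzymes, proteases and matrix receptors, gave 4 called genes, all lower in KO islets, and a median log2 fold change of −0.06. Over all probe sets 3.49% were called in either direction and 1.59% were called lower in KO islets. Prelp, a leucine-rich proteoglycan that anchors basement membranes to collagen, was at 3.24, 4.06, 3.20 and 3.61 in KO mice 1 to 4 and at 5.03, 4.93, 4.31 and 3.90 in WT mice 1 to 4. WT mouse 4 alone lay within the KO range, and the log2 fold change was −1.01 (standard error 0.31, limma adjusted p = 1). Prelp passed the threshold with each of the 8 mice left out in turn. Efemp1, fibulin-3, was at 2.21, 2.69, 2.27 and 2.64 in KO mice 1 to 4 and at 4.30, 4.27, 2.49 and 2.87 in WT mice 1 to 4. As for Dcn and Mmp2, WT mice 1 and 2 were the high ones, and the call for Efemp1 (log2 fold change −1.03, standard error 0.41) was lost without either of them, and also without KO mouse 1 or KO mouse 3. Its mean was 2.45 ± 0.25 in KO and 3.48 ± 0.94 in WT islets (SD, n = 4 each), on average in the background range, and it was not called by the methods' t-test or among bright probe sets.

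Lamb3, the laminin β3 chain of epithelial laminin, was called at −0.66 (standard error 0.25), with means of 2.37 ± 0.25 in KO and 3.03 ± 0.42 in WT islets (SD, n = 4 each), which is in the background range. Mmp12, the macrophage metalloelastase, was called at −0.59 (standard error 0.23), at 3.83 ± 0.32 in KO and 4.41 ± 0.26 in WT islets (SD, n = 4 each). Lamb3 was no longer called without WT mouse 3, WT mouse 4 or KO mouse 2, nor Mmp12 without WT mouse 1, WT mouse 4, KO mouse 3 or KO mouse 4. The 34 other collagens and the 25 matrix receptors had no called gene, with medians of 0.03 and 0.04.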

How the data were processed

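Islet RNA of 4 Fzd9 KO and 4 Fzd9 WT mice was hybridised to 8 arrays. The deposited values are log2 expression that the authors made with RMA, which subtracts background, equalises arrays and combines probes, and which narrows differences of dim genes. The submitters' notes name RMA and Partek, and versions and settings are not given in the sources used here. Values were used as deposited, without a filter. The genotypes were compared with limma (version 3.58.1 in R 4.3.3), KO minus WT, over all 41345 probe sets, of which 23521 name 1 gene, 1820 several and 16004 none in the annotation used. The methods name no test for the arrays, and the methods' t-test is that of their general statistics section. Per gene the brightest probe set with 1 symbol was taken, and 7 of the genes have a second one.

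The genes and lists were chosen with earlier results of these data known. Values per mouse are given for the genes with the 3 largest and 3 smallest log2 fold changes, the 3 brightest, the 3 dimmest and the brightest of each of 8 role groups, and for the called genes of the wider list. Other genes with values per mouse, such as Lamc1 and Col4a2, were chosen after their values were seen. Alternatives were the methods' t-test, limma with a trend, robust statistics or array weights, 3 further normalizations, limits to bright or to 1-gene probe sets, averaging the probe sets of each gene, no fold minimum, the mouse number as a block, and leaving out each mouse. The joint omission of KO mouse 1 and WT mouse 3 was chosen after seeing the data. The fit was tested on simulated data with known changes.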

Additional observations from a re-analysis of the deposited data

Results flagged for a closer look

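Within a genotype, 2 of 78 groups of 4 mice held a mouse whose gap to the nearest other, as a share of the group's range, exceeded Dixon's critical value, where 3.9 are due by chance, since chance gives about 1 in 20. Cspg4 in KO mouse 3 was at 4.72, against 3.79 to 3.94 in the other KO mice. Fbln1 in WT mouse 2 was at 4.45, against 2.95 to 3.19 in the other WT mice.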

How the results depend on the processing

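Under the alternatives that kept all 8 arrays, the count of called genes among the 39 stayed at 0, except with the mouse number as a replicate block, where it was 1 (Lum). Deviations of same-numbered mice correlated at −0.093, 0.027, 0.078 and 0.337 for mice 1 to 4. Mice of different numbers were not compared in this way, so the values do not settle whether the numbers pair mice. Leaving out 1 mouse gave 0 to 1 called genes, Lum without WT mouse 4 and Lamc1 without KO mouse 3, and medians of −0.35 (without WT mouse 4) to 0.06 (without WT mouse 2). Over all probe sets the count was 1444. It was 630 among bright probe sets and 770 among those with 1 gene, and fewer were tested in each of these. Of the wider matrix list, 4 genes were called. The methods' t-test called 7, without Efemp1 and with Fbn2, Mfap4, Mmp25 and Timp4, and 2 were called among bright probe sets (Prelp and Mmp12). With a mouse left out the count was 3 to 7, with 7 without WT mouse 3 or without KO mouse 1.

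Signs of single log2 fold changes were opposite for Col5a2 with array weights (0.06), Serpinh1 with quantile normalization (0.01), and Col5a2 (0.00) and Lox (0.04) without WT mouse 3 and KO mouse 1 together. With 1 mouse left out the values ran from −0.54 to 0.14 for Col1a1, −0.19 to 0.10 for Col5a2, −0.36 to 0.02 for Col6a2, −0.02 to 0.52 for Col4a1, −0.34 to 0.47 for Nid1, −0.08 to 0.71 for Sparc, −0.88 to 0.14 for Bgn, −0.24 to 0.11 for Serpinh1, −0.08 to 0.07 for Lox, −0.53 to 0.13 for Timp3, −0.44 to 0.12 for Pdgfra and −0.26 to 0.45 for Rgs5. The cause was not tested. For Mgp, Dcn, Lum, Mmp2 and Cspg4 the sign did not turn, but the size moved, from −0.60 to −0.04 for Mgp, −1.32 to −0.12 for Dcn, −1.10 to −0.42 for Lum, −0.84 to −0.36 for Mmp2 and 0.08 to 0.39 for Cspg4. For the 11 genes in the background range, signal over background limited what could be read.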
